A study of Schizosaccharomyces pombe with 97 samples.

Results

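Deletion of *asp1* was examined in vegetatively growing *Schizosaccharomyces pombe*, by comparing 3 *asp1∆* cultures with 3 wild type cultures in log phase (T0), 6 of the 81 RNA-seq libraries of the study. The wild type, *smt0*, carried *mat1-M smt0*, in which the *smt0* deletion at the mating type locus keeps the strain as a stable M-type haploid, and the mutant carried *smt0 asp1∆ kanMX4*. The deletion allele came from a genome-wide deletion library and was crossed into the *smt0* background with selection for prototrophs, so that 1 mutant strain in 3 cultures, A, B and C, stands for the deletion. Both strains were grown at 30 °C in minimal medium with a nitrogen source and were taken before nitrogen was removed. The study followed 7 strains at 4 time points to ask how fission yeast enters and maintains quiescence, and the T0 cultures of 4 other deletions, *hht2∆*, *pht1∆*, *iec1∆* and *arp42∆*, serve here as further comparison samples. The study's methods call the 3 cultures of a strain biological triplicates. The *P* values of the gene tests set a difference against the spread between cultures within groups. That spread was estimated for each gene jointly over the 27 groups of all 81 libraries, not from the 6 libraries alone.

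Asp1 is a bifunctional enzyme with an inositol polyphosphate kinase domain and a pyrophosphatase domain, and it makes and breaks down inositol pyrophosphates, small signalling molecules that carry energy-rich diphosphate groups. In fission yeast these molecules are known for their part in phosphate homeostasis. The genes of the phosphate regulon, *pho1* (an extracellular acid phosphatase), *pho84* (a plasma membrane phosphate transporter) and *tgp1* (a glycerophosphodiester transporter), are each repressed by transcription of a long noncoding RNA from upstream, and how early that RNA is terminated sets how strongly the gene is repressed. Loss of the Asp1 kinase is known to strengthen the repression, and loss of its pyrophosphatase to relieve it. The transcription factor Pho7 activates the 3 genes.

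Gene counts per library lay between 5980448 and 9068283, and counts on the ERCC spike-in RNAs between 6442 and 10086. Library-size-normalised counts (CPM) on the gene-count scale were computed with library sizes corrected by the trimmed mean of M values (TMM). They give each RNA's share of the gene counts of its rRNA-depleted library. The ERCC RNAs were added in proportion to cell number, so that CPM on the spike-in scale follow RNA per cell, and both scales are given. The 3 *smt0* cultures were not alike. In *smt0* A, 43 of 6608 tested genes lay more than 2 log2 units below both *smt0* B and *smt0* C, while each other T0 culture of *smt0*, *asp1∆* and the 4 other deletions had 0 to 10 such genes, and *pht1∆* C had 26 genes as far above both of its sister cultures. The counts of calls are therefore also given without *smt0* A. The stress and glucose repression lists and their leading genes are given without it or with it as the single control. A fit with 1 control culture passes fewer genes at differences of the same size, so a gene that did not pass there may still differ. The summed level of 8 genes listed as M-cell markers was 272 to 295 CPM in *asp1∆* and 293.7 to 372 CPM in *smt0*, with *mat1-Mc* at 0 in all 3 *asp1∆* libraries and at 1 or 2 counts in *smt0*. Of 6 P-cell markers 4 were in the table, and they summed to 336 to 405 CPM in *asp1∆* and 358 to 427 CPM in *smt0*, mostly from *sxa1*. These lists are imperfect, because *map3*, a receptor gene of P cells, stood in the first and *mam2*, a receptor gene of M cells, in the second. The 5 quiescence markers summed to 390 to 639 CPM in *asp1∆* and 160 to 342 CPM in *smt0*, nearly all of it from the amino acid permease gene *isp5*, which did not pass the test (log2 difference 1.03 ± 0.52 SE, *asp1∆* above all *smt0* cultures, adjusted *P* = 0.361 in edgeR's quasi-likelihood test with Benjamini-Hochberg adjustment). The part of these differences in the results was not tested.

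The deleted gene was first checked. *asp1* (SPCC1672.06c, III:571470-574562 on the reverse strand in the ASM294v2 annotation used by the authors) had 129, 115 and 132 CPM in *smt0* A, B and C and 10.4, 7.67 and 8.24 CPM in *asp1∆* A, B and C. Every *asp1∆* culture was far below every *smt0* culture, and the remaining level was 7.01% of wild type. The log2 difference was -3.83 ± 0.21 (SE, adjusted *P* = 3.05e-22, edgeR's quasi-likelihood test with Benjamini-Hochberg adjustment, as for every adjusted *P* here). In the 12 cultures of the other deletions *asp1* lay between 68.5 and 109 CPM. The antisense RNA annotated over the start of the gene, *asp1-antisense-1* (SPNCRNA.1144, III:573503-574812), went the other way, with 0, 1 and 1 counts in *smt0* and 39, 41 and 39 counts in *asp1∆*. This is a ratio of 57.5, with an exact 95% interval of 15.6 to 480.5 that covers counting error alone. Whether the counting used strand is not stated, and the RNA overlaps the position of the *kanMX4* cassette, so the source of these reads was not tested. None of the other 18 tested genes among the 10 neighbours on each side of *asp1* passed the test.

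Of the 9 enzymes and transporters of inositol phosphate metabolism, *asp1* was the only member that passed the test against *smt0*. The other inositol hexakisphosphate kinase gene, SPCC970.08 (*kcs1* in RefSeq), differed by 0.25 ± 0.20 (SE) on the log2 scale (adjusted *P* = 0.678). The *aps1* gene, for a diadenosine and diphosphoinositol polyphosphate hydrolase, differed by 0.02 ± 0.14 (adjusted *P* = 0.977), and SPBC17A3.03c, the *siw14* phosphatase gene, by -0.18 ± 0.13 (adjusted *P* = 0.603). The genes of the inositol transporters, *itr1* and *itr2*, differed by -0.01 and -0.02, the kinase genes *arg82* and *ipk1* by 0.05 and -0.02, and *plc1*, for phospholipase C, by -0.32 (adjusted *P* = 0.325). The median over the 9 was -0.02, against 0.01 over all tested genes.

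Of the 6608 genes tested on the gene-count scale, 99 (1.5%) were higher and 114 (1.73%) lower in *asp1∆* than in *smt0* at an adjusted *P* under 0.05, or 3.22% in either direction. The rises had a median of 1.85 and the falls a median of -1.34 on the log2 scale. All 99 rises had the 3 *asp1∆* cultures above the 3 *smt0* cultures, and 77 of the 114 falls had them below, where 13.9% and 12.9% of all tested genes did not overlap in the respective direction. The rises comprised 53 protein-coding or other genes, 17 noncoding RNAs, 16 antisense RNAs, 10 tRNAs, 2 ribosomal RNAs and 1 snoRNA, and the falls comprised 96, 9, 7, 1, 1 and 0 of these. *smt0* A was nearer to the *asp1∆* mean than to the mean of *smt0* B and C in 82 of the 114 falls (71.9%) and in 7 of the 99 rises (7.07%). With *smt0* A left out, 107 genes were higher and 156 lower. Counts with *smt0* A as the single control are not set beside these, because 1 control culture passes fewer genes at differences of the same size. Each of the other cultures mattered as well: without *smt0* B 42 rose and 43 fell, without *smt0* C 43 and 49, without *asp1∆* C 51 and 51, and without *asp1∆* A 53 and 56, and 72 fell without *asp1∆* B. A set of 11 genes passed in every alternative fit: *asp1-antisense-1*, SPBPB10D8.02c, *tlh2*, SPAC10F6.14c-antisense-1, SPNCRNA.1432, SPAC11D3.15 and SPAC11D3.14c among the rises, and *asp1*, *pho84*, *pho1* and *gdh2* among the falls.

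**Figure D1:**
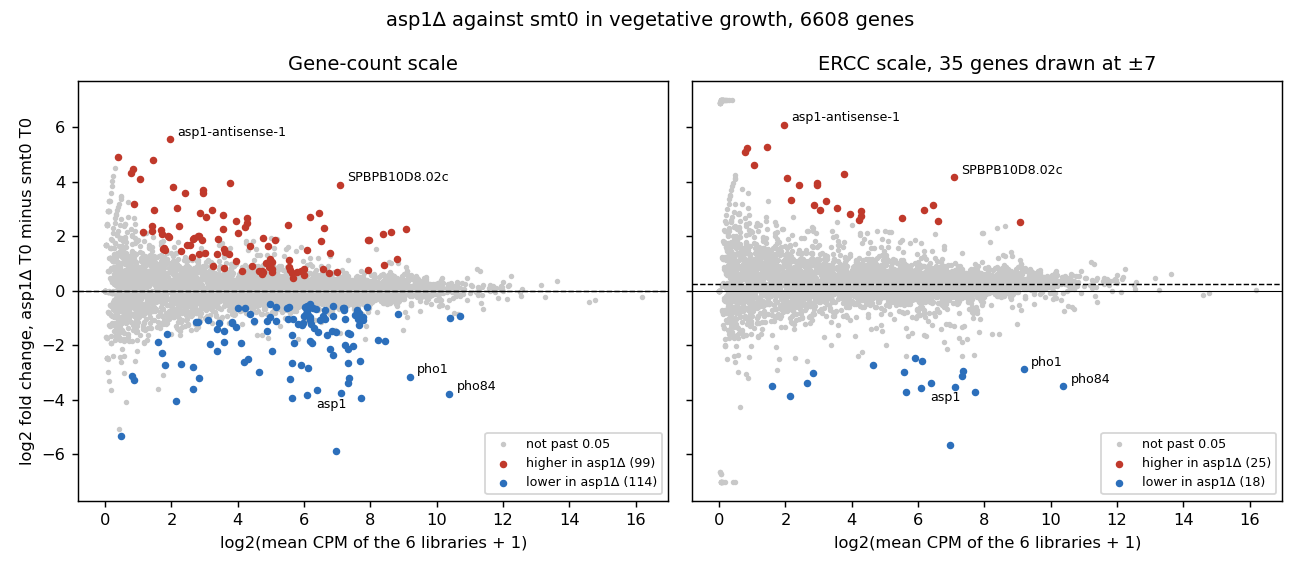
Log2 difference of *asp1∆* T0 from *smt0* T0 (vertical axis) against mean level (log2 CPM, horizontal axis) for the tested genes, on the gene-count scale and on the spike-in scale. Coloured points passed an adjusted *P* under 0.05, 99 higher and 114 lower on the gene-count scale and 25 higher and 18 lower on the spike-in scale.

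Besides *asp1*, the largest falls that held in every fit were those of the phosphate genes *pho84* and *pho1*. The 250 bases before the RefSeq start (ASM294v3) of *pho84*, *pho1* and *tgp1* are shown because *pho84* and *pho1* fell and *tgp1* did not, and SPAC23D3.12, a phosphate transporter gene that rose, is shown beside them. The windows lie at II:4443851-4444100 on the forward strand for *pho84*, II:4447256-4447505 on the forward strand for *pho1*, II:352412-352661 on the reverse strand for *tgp1* and I:4362218-4362467 on the forward strand for SPAC23D3.12. Capitals mark matches to the recognition site of Pho7, on either strand.
pho84: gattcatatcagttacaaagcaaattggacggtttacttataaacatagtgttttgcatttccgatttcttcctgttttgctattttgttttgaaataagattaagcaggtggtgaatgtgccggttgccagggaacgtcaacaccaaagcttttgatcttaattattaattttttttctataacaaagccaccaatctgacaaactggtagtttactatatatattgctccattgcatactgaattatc
pho1: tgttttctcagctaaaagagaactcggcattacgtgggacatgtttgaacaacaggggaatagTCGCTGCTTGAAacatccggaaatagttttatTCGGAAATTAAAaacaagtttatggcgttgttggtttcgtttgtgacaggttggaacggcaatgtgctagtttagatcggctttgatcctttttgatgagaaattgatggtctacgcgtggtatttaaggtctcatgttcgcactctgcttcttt
tgp1: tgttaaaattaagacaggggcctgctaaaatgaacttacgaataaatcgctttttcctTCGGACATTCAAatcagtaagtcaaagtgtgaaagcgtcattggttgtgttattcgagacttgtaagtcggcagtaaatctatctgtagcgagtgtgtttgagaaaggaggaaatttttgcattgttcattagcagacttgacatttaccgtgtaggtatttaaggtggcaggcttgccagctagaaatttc
SPAC23D3.12: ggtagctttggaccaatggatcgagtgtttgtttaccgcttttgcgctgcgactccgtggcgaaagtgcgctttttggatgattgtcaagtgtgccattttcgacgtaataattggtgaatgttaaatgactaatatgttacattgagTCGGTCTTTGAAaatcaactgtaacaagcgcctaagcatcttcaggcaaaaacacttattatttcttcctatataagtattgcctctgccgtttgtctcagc
The *pho1* window held 2 matches, 187 and 155 bases before the start, the *tgp1* window 1 at 192 bases and the SPAC23D3.12 window 1 at 102 bases, and the *pho84* window held none, though it held the reverse complement of TGACGT, the letters of the Atf1 site described further on. Of all 5112 promoter windows of this length 99 (1.94%) held a match.

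*pho84* (SPBC8E4.01c, II:4444125-4446200) had 2717, 2406 and 2327 CPM in *smt0* A, B and C and 188, 181 and 177 CPM in *asp1∆* A, B and C. The groups were far apart and each was tight, with means of 2483 ± 206 and 182 ± 5.54 (SD, n = 3 cultures), so that 7.34% of the wild type level remained. The log2 difference was -3.77 ± 0.36 (SE, adjusted *P* = 1.22e-11) on the gene-count scale and -3.50 (adjusted *P* = 0.0017) on the spike-in scale. It lay between -3.90 and -3.68 in the 15 alternative fits.

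*pho1* (SPBP4G3.02, II:4446373-4449053) had 1209, 976 and 942 CPM in *smt0* and 141, 103 and 110 CPM in *asp1∆*, or 11.3% of the wild type level. Again no *asp1∆* culture came near a *smt0* culture. The log2 difference was -3.14 ± 0.22 (SE, adjusted *P* = 9.29e-18) on the gene-count scale and -2.88 (adjusted *P* = 0.0159) on the spike-in scale. The *pho1* model of the deposited table starts 1133 bases before the RefSeq gene and covers the span of the noncoding RNA *prt*, which is not a row of its own, so reads of *pho1* and of *prt* cannot be told apart. The noncoding RNA that starts upstream of *pho84*, *prt2* (II:4442542-4445970 in RefSeq), is not a row of the table either. Its span runs into the *pho84* model, so reads of *pho84* and of *prt2* cannot be told apart where they overlap. A model over the first part of *prt2*, SPBC8E4.02c, had 68.8, 174 and 150 CPM in *smt0* and 90.7, 67.2 and 73.8 CPM in *asp1∆*. These groups overlapped, with an adjusted *P* of 0.0545.

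The *asp1∆* levels of both genes were below those of every other vegetative culture examined. *pho84* averaged 2700.5 CPM in *hht2∆*, 4841 in *pht1∆*, 1809 in *iec1∆* and 2860 in *arp42∆*. *pho1* varied more among these strains, with means of 1362, 4792, 939 and 469 CPM in the same order, and the lowest of the 12 cultures had 413 CPM, above the 141 CPM of the highest *asp1∆* culture. Against the mean of the 4 deletions the log2 difference was -3.98 ± 0.34 for *pho84* (SE, adjusted *P* = 8.83e-14) and -3.46 ± 0.20 for *pho1* (adjusted *P* = 3.09e-21). The *asp1∆* libraries serve in both comparisons.

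No other gene of the phosphate regulon passed the test against *smt0*. *tgp1* (SPBC1271.09, II:350692-352369), whose window is shown above, had 31.7, 24.8 and 25.3 CPM in *smt0* and 54.8, 32.0 and 42.4 CPM in *asp1∆*. The 3 *asp1∆* cultures were above the 3 *smt0* cultures, but the log2 difference of 0.66 ± 0.29 (SE) did not pass the test (adjusted *P* = 0.265). The repressing RNA of *tgp1*, nc-tgp1, was not measured here. SPNCRNA.1343, which RefSeq describes as a non-functional bidirectional partner of it on the opposite strand, differed by 0.48 ± 0.29 (adjusted *P* = 0.482). Of the 12 genes listed for the regulon 11 were in the table, and 2 of these fell, none rose and 9 did not pass the test, with a median of -0.25. The gene of the activator, *pho7*, differed by 0.15 ± 0.17 (adjusted *P* = 0.803), *csk1*, a kinase gene of the pathway, by 0.42 ± 0.14 (adjusted *P* = 0.074) and *pho4*, a thiamine-repressible acid phosphatase gene, by 0.27 ± 0.29 (adjusted *P* = 0.784). The alkaline phosphatase gene *pho8* differed by -0.25 and SPAC6B12.07c by -0.17. The subunit genes of the vacuolar polyphosphate polymerase, *vtc4* and *vtc2*, and *nrf1*, for a small Vtc-type membrane protein, had all *asp1∆* cultures below all *smt0* cultures, with log2 differences of -0.43, -0.38 and -0.67 and adjusted *P* values of 0.114, 0.136 and 0.182. Against the 4 other deletions these 3 genes were lower by -0.51 (adjusted *P* = 0.00269), -0.40 (adjusted *P* = 0.0102) and -1.06 (adjusted *P* = 0.000669), a comparison in which 5.48% of all tested genes were lower and 8.82% higher.

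**Figure D2:**
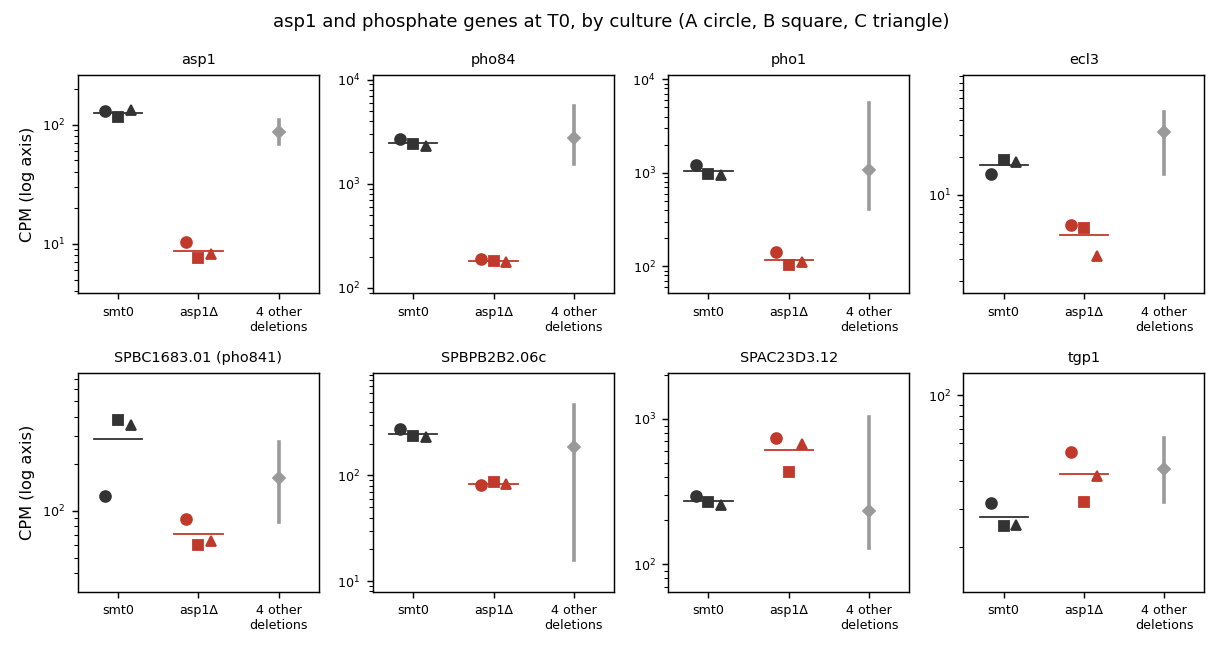
Levels of *asp1* and 7 phosphate genes and neighbours in single cultures at T0 (vertical axis, CPM on the gene-count scale, log axis) for *smt0* and *asp1∆* (points, with the mean as a line) and for the 12 cultures of the 4 other deletions (median as a diamond, lowest to highest as a bar). *pho84* lies at 177 to 188 CPM and *pho1* at 103 to 141 CPM in *asp1∆*, below all other cultures plotted.

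Phosphate transporter genes outside the list, a neighbour of *pho84* and *pho1*, and a phosphatase gene were looked up after their values were seen. *ecl3*, of a gene family known for extending chronological lifespan, lies with *pho84* and *pho1* within 7714 bp. It had 14.6, 19.1 and 18.4 CPM in *smt0* and 5.64, 5.38 and 3.18 CPM in *asp1∆*. Its groups did not overlap, and it fell by 1.87 on the log2 scale (adjusted *P* = 0.00186). SPBPB2B2.06c, a phosphoprotein phosphatase gene by its RefSeq product, had 277, 235 and 229 CPM in *smt0* against 81.2, 86.5 and 82.6 CPM in *asp1∆* and fell by 1.57 (adjusted *P* = 0.0279). The other deletions spanned 15.8 to 469 CPM of SPBPB2B2.06c, and against their mean it differed by -0.82 (adjusted *P* = 0.118). SPBC1683.01, which RefSeq names *pho841*, had 124, 381 and 351 CPM against 88.6, 60.4 and 64.2 CPM, with *smt0* A nearer to *asp1∆* than to its sisters, and fell by 2.01 (adjusted *P* = 0.000166). SPAC23D3.12, named *pho842* in RefSeq, moved the other way, with 295, 266 and 257 CPM in *smt0* and 741, 429 and 675 CPM in *asp1∆*. It rose by 1.17 ± 0.31 (SE, adjusted *P* = 0.0177) and stood 1.05 above the other deletions (adjusted *P* = 0.000801).

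The fourth fall that held in every fit was *gdh2*, the gene of the NAD-dependent glutamate dehydrogenase, which releases ammonium from glutamate. It had 2639, 1865 and 1995 CPM in *smt0* and 1258, 1087 and 1067 CPM in *asp1∆*, without overlap, and fell by 0.93 on the log2 scale (SE 0.18, adjusted *P* = 0.000635). The other deletions ranged from 546 to 2123 CPM, and against their mean *gdh2* differed by -0.08 (adjusted *P* = 0.761). It is a member of the list of 16 nitrogen starvation genes, in which *inv1* also fell and 14 did not pass the test (median 0.28). *isp7*, a nitrogen-starvation-induced gene, had a log2 difference of 1.03 ± 0.44 (SE, adjusted *P* = 0.237).

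In a stretch on the left arm of chromosome I, from SPAC11D3.14c to SPAC5H10.04 and chosen after its values were seen, 6 of 14 tested genes and antisense RNAs rose, none fell and 8 did not pass the test. SPAC11D3.15 and SPAC11D3.14c, neighbouring genes for 5-oxoprolinases, which open the ring of 5-oxoproline to give glutamate, lie at I:136139-140365 and I:131190-135736. SPAC11D3.15 had 69.1, 233 and 241 CPM in *smt0* and 893, 663 and 1093 CPM in *asp1∆*, a rise of 2.28 ± 0.33 (SE, adjusted *P* = 1.93e-06). SPAC11D3.14c had 61.7, 189 and 185 CPM against 712, 459 and 771 CPM, a rise of 2.16 ± 0.42 (adjusted *P* = 0.00062). *smt0* A was the lowest culture for both, and every *asp1∆* culture was above *smt0* B and C. SPAC5H10.01, a D-glutamate cyclase gene further from the chromosome end, had 26.1, 184 and 169 CPM against 534, 437 and 635 CPM and rose by 2.08 ± 0.55 (adjusted *P* = 0.0163), a call lost without *smt0* A and without *asp1∆* C. SPAC11D3.17, a zinc finger transcription factor gene between them, rose by 1.39 (adjusted *P* = 0.0247), SPAC5H10.04, an NADPH dehydrogenase gene, by 1.66 (adjusted *P* = 0.00333) and *hsp3102-antisense-1* by 2.39 (adjusted *P* = 0.00742). With *smt0* A as the single control, these last 3 did not pass. SPAC11D3.18c, in the same stretch, differed by 1.55 without passing the test (adjusted *P* = 0.1), SPAC11D3.16c by 0.67 (adjusted *P* = 0.478), and *hsp3102* and SPAC5H10.03 differed by -0.75 and 0.08 (adjusted *P* = 0.446 and 0.967). The antisense RNAs SPAC11D3.14c-antisense-1, SPAC11D3.15-antisense-1, SPAC5H10.01-antisense-1 and SPAC11D3.18c-antisense-1 differed by -0.68, -0.25, -0.04 and 1.76 and did not pass. Against the 4 other deletions the oxoprolinase genes were higher by 2.97 (SPAC11D3.15) and 2.37 (SPAC11D3.14c) and SPAC5H10.01 by 3.79 (adjusted *P* = 5.73e-17, 5.1e-09 and 3.13e-12), whereas SPAC11D3.17 differed by 0.34 and SPAC5H10.04 by -0.36.

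This stretch belongs to the 340 tested genes that lie less than 200 kb from the ends of chromosomes I and II, of which 23 rose, 6 fell and 311 did not pass the test. The shares are 1.5% and 1.73% over all tested genes, and the median was 0.09 against 0.01 over all. The left end of chromosome I had 7 rises of 91 genes, its right end 6 of 90, the left end of chromosome II 8 of 85 and its right end 2 of 74. Of the 6 falls 4 were at the right end of chromosome II, namely *pho1*, *pho84*, *ecl3* and SPBPB2B2.06c.

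The largest subtelomeric rise that held in every fit was that of SPBPB10D8.02c, an arylsulfatase gene at II:83229-85631. It had 28.0, 11.5 and 11.3 CPM in *smt0* and 250.5, 244 and 256 CPM in *asp1∆*, an increase of 3.89 ± 0.44 on the log2 scale (SE, adjusted *P* = 2.66e-09). The *asp1∆* cultures were tight and far above *smt0*, and they were above the highest culture of the other deletions, 84.2 CPM. The neighbouring SPBPB10D8.01, a cysteine transporter gene, rose by 1.81 (adjusted *P* = 0.00068) and SPBPB10D8.03 by 3.60 (adjusted *P* = 0.000602). *tlh2*, a RecQ-type helicase gene 9.9 kb from the right end of chromosome II, had 0.785, 0.82 and 1.24 CPM in *smt0* and 12.9, 9.95 and 14.5 CPM in *asp1∆*. It rose by 3.70 ± 0.52 (adjusted *P* = 1.15e-06), and since the *tlh* genes are near-identical copies at several chromosome ends, the reads may come from more than that copy.

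Of the other subtelomeric rises, SPBC1683.12, a nicotinic acid transporter gene, had 96.1, 105 and 111 CPM in *smt0* and 342, 327 and 467 CPM in *asp1∆* (1.86, adjusted *P* = 0.00123). SPAC869.05c, a sulfate transporter gene, had 185, 258 and 259 CPM against 479, 386 and 487 CPM (0.94, adjusted *P* = 0.00242). Both had all *asp1∆* cultures above all *smt0* cultures, and both were named after their values were seen. Several others were at low levels. SPAC750.01, an aldo/keto reductase family gene, had 4, 2 and 2 counts in *smt0* and 37, 46 and 41 counts in *asp1∆* (log2 difference 3.82, adjusted *P* = 0.00062). SPAC750.05c had no count in *smt0* and 6, 3 and 4 counts in *asp1∆*, a ratio of 4.19 against a floor of 3 counts over the *smt0* group. Its call (adjusted *P* = 0.0398) was lost without *smt0* A, B or C and without *asp1∆* A or C. The noncoding RNA SPNCRNA.310 had 0, 0 and 2 counts in *smt0* and 24, 24 and 23 counts in *asp1∆*, a ratio of 34.3 with an exact 95% counting interval of 9.16 to 289. *pfl7*, for a cell surface glycoprotein of the flocculin family, rose by 2.87 ± 0.55 (adjusted *P* = 0.00062) with *smt0* at 0.531 to 3.1 CPM and *asp1∆* at 9.41 to 13.2 CPM, and *pfl5* rose by 0.86 (adjusted *P* = 0.0266), the 2 members that rose of 14 tested flocculin and adhesion genes. The cultures of the other deletions had 2.7 to 11.9 CPM of *pfl7*, a range that overlapped both groups. The *pfl7* model (II:117892-121286) overlaps the noncoding RNA SPNCRNA.293 (II:120577-121643), which rose by 3.59, so their reads may not be separated. Without *smt0* A 21 subtelomeric genes were higher and 12 lower, and without *smt0* B 13 and 5. No gene of the 17 heterochromatin and RNAi genes passed the test (0 higher, 0 lower, median 0.07), and neither did any of the 8 tested *Tf2* retrotransposons.

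**Figure D3:**
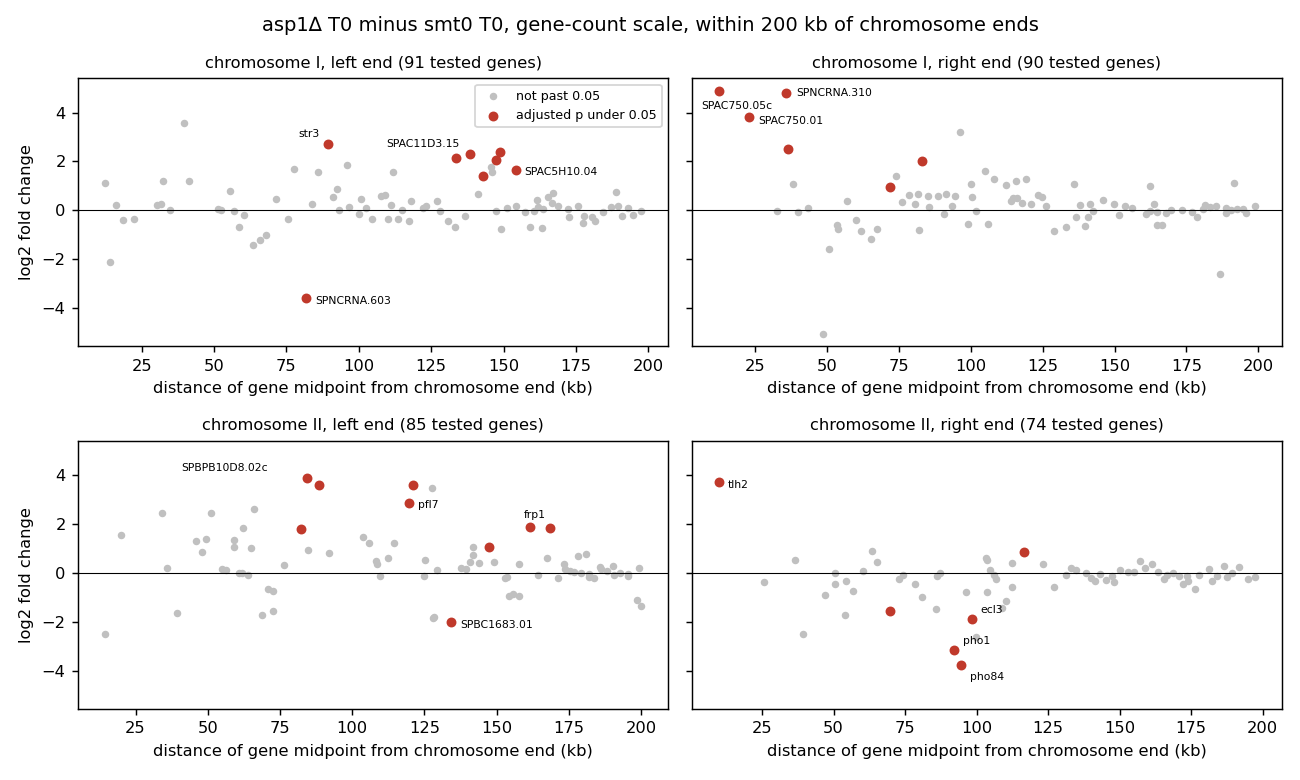
Log2 difference of *asp1∆* T0 from *smt0* T0 on the gene-count scale (vertical axis) by distance of the gene's midpoint from the chromosome end (horizontal axis, kb), for the tested genes within 200 kb of the 4 ends of chromosomes I and II. Red points passed an adjusted *P* under 0.05, with 23 rises spread over the 4 ends and *pho1*, *pho84* and *ecl3* side by side at the right end of chromosome II.

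Core stress genes were among the falls, and in these the 3 *smt0* cultures disagreed. The core environmental stress response of fission yeast is driven by the Sty1 kinase and the transcription factor Atf1 and induces chaperones, catalase and antioxidant enzymes. Of 28 genes of the core stress response 11 fell, none rose and 17 did not pass the test, with a median of -0.75. Among all tested genes 1.73% fell and 1.5% rose. All 11 had *smt0* A as the lowest wild type culture, as had 18 of the whole list of 28. In 5 of the 11 *smt0* A was at or below the highest *asp1∆* culture. With *smt0* A left out 12 fell and the median was -1.003, and with *smt0* A as the single control none fell and the median was 0.02. With any other single culture left out 5 to 7 fell.

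*ctt1*, the catalase gene, had 55.0, 455 and 362 CPM in *smt0* A, B and C and 33.0, 35.4 and 26.5 CPM in *asp1∆* (log2 difference -3.20 ± 0.61 SE, adjusted *P* = 0.000538). *ssa1*, an Hsp70 chaperone gene, had 58.7, 394 and 371 CPM against 42.4, 49.8 and 39.3 CPM (-2.65 ± 0.42, adjusted *P* = 1.91e-05). In both, the *asp1∆* cultures were below all *smt0* cultures, and *smt0* A lay close to them. The 12 cultures of the other deletions had 12.5 to 255 CPM of *ctt1* and 29.7 to 119 CPM of *ssa1*, so that *smt0* B and C were above all of them. *cta3*, a cation-transporting ATPase gene, had 17.0, 521 and 505 CPM in *smt0* and 56.5 to 61.5 CPM in *asp1∆*, which placed *asp1∆* above *smt0* A and below B and C (-2.58 ± 0.53, adjusted *P* = 0.00123). *pyp2*, for the phosphatase that acts on Sty1, had 17.0, 169 and 174 CPM against 12.9 to 22.0 CPM, a range that held *smt0* A (-2.81 ± 0.60, adjusted *P* = 0.00191). With *smt0* A as the single control, *cta3* differed by 1.78 and *pyp2* by 0.00, and *ctt1* and *ssa1* by -0.80 and -0.43, and none of the 4 passed the test.

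*smt0* B and C lay above all 12 cultures of the other deletions in 10 of the 11 core stress genes that fell and in 75 of all 114 falls. The mean of *asp1∆* lay within the range of those 12 cultures in all 11 and in 78 of the 114. Falls were called against the *smt0* mean, so high *smt0* cultures among them are partly set by the selection. Over all 28 tested core stress genes, fallen or not, the 2 counts were 16 and 26. Against the mean of the 4 deletions 3 of the 28 core stress genes were higher in *asp1∆*, none was lower, and the median was 0.02. Of all tested genes 8.82% were higher and 5.48% lower in this comparison. The other members that fell, *hsp16*, *hsp104*, *ntp1* (a trehalase gene), *srx1* (sulfiredoxin), *gst3* (a glutathione S-transferase gene), *ish1* and *atf1* itself, fell by 1.02 to 2.12 on the log2 scale.

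Several falls outside the list had the same arrangement of cultures. SPBC21C3.19 (RefSeq *rtc3*) had 34.2, 573 and 561 CPM in *smt0* and 32.6, 27.4 and 16.3 CPM in *asp1∆* (-3.93 ± 0.87 SE, adjusted *P* = 0.00317), with -4.46 without *smt0* A and -0.43 with *smt0* A as the single control. SPCC794.04c, a membrane transporter gene, had 31.6, 421 and 418 CPM against 31.4, 27.2 and 25.9 CPM (-3.37 ± 0.61, adjusted *P* = 0.000214), with -3.88 and -0.17 in the same alternatives. SPBC660.05 (RefSeq *wwm3*), chosen after its values were seen, had 2.51, 411 and 323 CPM against 6.37, 3.09 and 3.04 CPM (-5.88 ± 0.94, adjusted *P* = 2.19e-05), the largest fall among the genes that passed, with *smt0* A below every *asp1∆* culture. Its level in the other deletions was 7.09 to 140 CPM. Genes of glucose repression behaved likewise. Of 14 hexose transport and glucose-repressed genes, *inv1* (invertase), *gut2* (glycerol-3-phosphate dehydrogenase) and *gld1* (glycerol dehydrogenase) fell and 11 did not pass the test. The median was -1.08, and 1.73% of all tested genes fell. *inv1* had 6.44, 126 and 144 CPM in *smt0* and 4.03 to 7.81 CPM in *asp1∆* (-3.92 ± 0.88, adjusted *P* = 0.00339), with -4.46 without *smt0* A and -0.09 with it as the single control. None of SPBC21C3.19, SPCC794.04c and *inv1* passed with *smt0* A as the single control. Without *smt0* A 5 of the 14 fell and without *asp1∆* C 1, and with *smt0* A as the single control none fell and the median was 0.33.

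**Figure D4:**
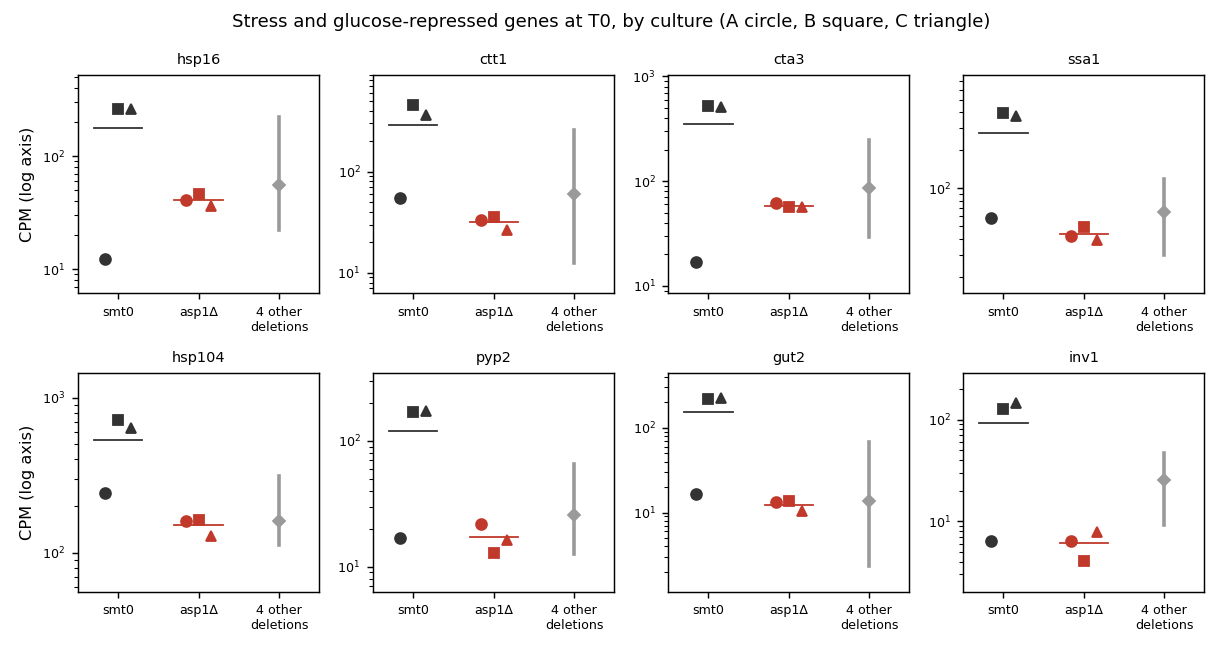
Levels of stress and glucose-repressed genes in single cultures at T0 (CPM on the gene-count scale, log axis) for *smt0* and *asp1∆* (points, with the mean as a line) and for the 12 cultures of the 4 other deletions (median as a diamond, lowest to highest as a bar). *smt0* B and C are high and *smt0* A is close to the *asp1∆* cultures, for example 455, 362 and 55.0 CPM for *ctt1* in B, C and A.

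Promoter windows were searched for the letters of the Atf1 site. The windows of *ctt1* (III:58834-59083, reverse strand) and SPBC660.05 (II:202031-202280, forward strand) are shown as examples from RefSeq ASM294v3, with the letters TGACGT in capitals.
ctt1: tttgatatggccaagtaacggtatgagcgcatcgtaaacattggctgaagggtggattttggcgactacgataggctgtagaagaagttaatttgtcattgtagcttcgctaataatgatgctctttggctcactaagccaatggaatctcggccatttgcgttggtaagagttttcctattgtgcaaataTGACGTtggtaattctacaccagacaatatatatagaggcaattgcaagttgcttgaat
SPBC660.05: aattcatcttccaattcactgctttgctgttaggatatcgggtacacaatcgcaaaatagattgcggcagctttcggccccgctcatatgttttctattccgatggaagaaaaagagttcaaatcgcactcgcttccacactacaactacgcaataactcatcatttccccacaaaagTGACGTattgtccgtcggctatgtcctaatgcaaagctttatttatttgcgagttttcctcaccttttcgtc
Searched on both strands, TGACGT was found in 31 of 96 windows of genes that fell (32.3%), in 5 of the 11 core stress genes that fell (45.5%), in 1 of 50 windows of genes that rose (2%) and in 282 of 5112 windows overall (5.52%). In *ctt1* it began 59 bases and in SPBC660.05 72 bases before the gene start. The heat shock letters GAANNTTC were in 13 of the 96 (13.5%) and in 9.49% of all windows. The genes that fell are the set in which *smt0* A was nearer to *asp1∆* than to *smt0* B and C in 82 of 114. Whether the share of TGACGT goes with the deletion or with the difference among the *smt0* cultures was not tested.

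Metal uptake genes moved in part. Of 22 iron, copper and zinc uptake genes 3 rose, 1 fell and 18 did not pass the test, with a median of 0.17. The shares over all tested genes were 1.5% and 1.73%. *str3*, a siderophore-iron transporter gene, had 32.2, 12.8 and 12 CPM in *smt0* and 135, 107 and 129.7 CPM in *asp1∆*, without overlap (2.71 ± 0.74 SE, adjusted *P* = 0.0235). *frp1*, a ferric-chelate reductase gene, had 19.6, 11.1 and 12.9 CPM against 57.7, 50.8 and 52.1 CPM (1.88 ± 0.46, adjusted *P* = 0.00787). The copper transporter gene *ctr5* rose by 0.74 (adjusted *P* = 0.0252), and the plasma membrane zinc transporter gene *zrt1* fell from 534 to 666 CPM in *smt0* to 299 to 344 CPM in *asp1∆* (-0.84, adjusted *P* = 0.029) and was lower by -1.88 against the other deletions (adjusted *P* = 1.52e-09). The other deletions spanned 3.9 to 113 CPM of *str3* and 6.37 to 63.3 CPM of *frp1*. With *smt0* B or *smt0* C left out none of the 22 rose and with *asp1∆* C left out 1 did, *zrt1* did not pass with any single culture left out, and with *smt0* A as the single control none rose or fell.

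Some tRNA genes rose. Of 125 tested tRNA genes, a list added after the data were seen, 10 rose, 1 fell and 114 did not pass the test, with a median of 0.82 and 84 fitted differences above 0. Over all tested genes 1.5% rose and 1.73% fell. The rises ranged from 1.91 to 4.10 and comprised 4 of 7 glutamate, 3 of 7 aspartate, 1 of 6 glutamine, 1 of 9 leucine and 1 of 8 lysine tRNA genes by their names in the table. The summed tRNA level was 519, 686 and 562 CPM in *smt0* and 1072, 1606 and 1036 CPM in *asp1∆*, with no overlap. The largest was SPBTRNALYS.08, with 0, 1 and 1 counts in *smt0* and 17, 17 and 9 counts in *asp1∆*, a ratio of 20.8 with an exact 95% counting interval of 5.42 to 177. Of 40 tested snoRNA and snRNA genes 1 rose and none fell (median 0.25), and of 43 tested rRNA genes 2 rose and 1 fell. The snoRNA *snoR39b* rose from 100.4 to 114 CPM to 236 to 562 CPM (1.85 ± 0.56 SE, adjusted *P* = 0.0479), and the 5S rRNA gene SPRRNA.36 by 2.31 (adjusted *P* = 0.00342) while another, SPRRNA.26, fell by 2.28 (adjusted *P* = 0.0261). *maf1*, for the repressor of RNA polymerase III and noted after its values were seen, had 27 CPM in *smt0* A, 50 in B and 43.7 in C and 20, 21.9 and 21 CPM in *asp1∆* (-0.94, adjusted *P* = 0.00062). Copies of tRNA and 5S rRNA genes are near-identical and short, so how reads were shared between copies and kept during library preparation bears on these values and was not tested. With *smt0* C left out 3 tRNA genes rose, with *smt0* B or *asp1∆* B left out 6, and with *smt0* A as the single control none did.

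Among antisense RNAs 16 of 611 rose and 7 fell, with a median of 0.13. For this class and the other noncoding RNAs below, the shares over all tested genes were 1.5% higher and 1.73% lower. SPAC10F6.14c-antisense-1 had 0.785, 3.28 and 4.07 CPM in *smt0* and 18.1, 15.5 and 22.8 CPM in *asp1∆*, a rise of 2.78 ± 0.45 (SE, adjusted *P* = 2.6e-05) that held in every fit, while its sense gene SPAC10F6.14c differed by -0.37 (adjusted *P* = 0.289). The noncoding RNA SPNCRNA.1432 rose from 4.6 to 7.85 CPM to 20.6 to 35.5 CPM (2.33 ± 0.30, adjusted *P* = 8.6e-08), also in every fit. The other deletions ranged from 8.80 to 53.6 CPM, and against their mean SPNCRNA.1432 differed by 0.47 (adjusted *P* = 0.123). Among the 669 other noncoding RNAs 17 rose and 9 fell, with a median of 0.00. SPNCRNA.451 was at 0.531 to 2.36 CPM in *smt0* and at 22.6 to 24.9 CPM in *asp1∆* and rose by 3.97 (adjusted *P* = 0.000451). At the *mug93* locus the gene, of meiotic expression, had 0, 1 and 0 counts in *smt0* and 16, 11 and 5 counts in *asp1∆* (ratio 30.9, exact 95% counting interval 5.17 to 1260, adjusted *P* = 0.00746), while its antisense RNA *mug93-antisense-1* had 12.9, 127 and 102 CPM and 19.5, 23.7 and 21.4 CPM (-1.90, adjusted *P* = 0.00443), with *smt0* A below *asp1∆*. Since the strand setting of the counting is not stated, sense and antisense reads of such pairs may not be separated.

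Single members of other groups passed the test. *ssu72*, the RNA polymerase II CTD phosphatase of the cleavage and polyadenylation factor, had 14.6, 12.3 and 10.4 CPM in *smt0* and 25.2, 17.1 and 19.5 CPM in *asp1∆* (0.72 ± 0.21 SE, adjusted *P* = 0.0393), the only member of 18 listed factor genes to pass, in a list whose median was 0.06. *ste7*, an arrestin-related gene of pheromone signalling, had 16.3, 9.6 and 16.3 CPM against 60.3, 32.8 and 39.5 CPM (1.66 ± 0.40, adjusted *P* = 0.00746). *tip1*, for a microtubule plus-end protein, fell by 0.68 (adjusted *P* = 0.00742) and *hem13*, for a heme synthesis enzyme, by 0.64 (adjusted *P* = 0.0304), with *smt0* at 173 to 176 CPM and *asp1∆* at 111 to 114 CPM of *hem13*. These were the single calls among 11 pheromone signalling, 21 microtubule and polarity, and 19 ergosterol and related genes.

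Many functions showed no gene past the test. No gene passed among 7 thiamine, 9 M-cell and 5 P-cell mating, 21 glucan synthase and glucanase, 11 septation, 13 MBF target, 10 histone, 17 Ino80 complex, 17 glycolysis, 8 amino acid permease and 38 mitochondrial genome genes, nor among 150 entries named as cytosolic ribosomal proteins, 9 of them antisense RNAs. The medians of these lists ran from -0.35 for the histones to 0.47 for the amino acid permeases. In the histone list *asp1∆* was below all *smt0* cultures in 6 of 10 genes, where 12.9% of all tested genes were. Over all tested genes, 452 had an unadjusted *P* under 0.05 in the higher and 487 in the lower direction. The markers used in strain building, *leu1*, *ade6* and *ura4*, differed by 0.31, -0.03 and 0.12 and did not pass the test.

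**Figure D5:**
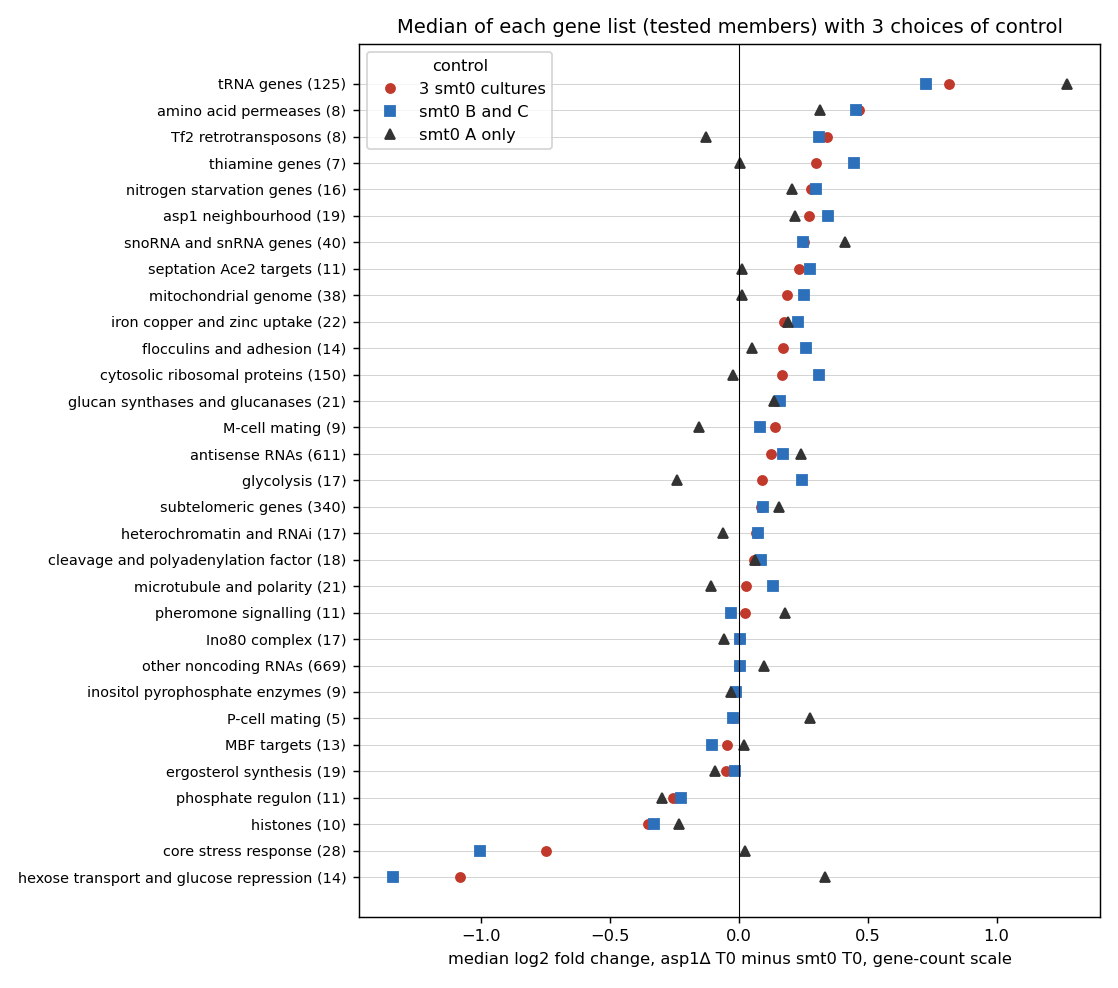
Median log2 difference of *asp1∆* T0 from *smt0* T0 for each gene list on the gene-count scale (horizontal axis, log2), with 3 choices of control cultures. The number of tested members stands in brackets. The core stress response list moves from -0.75 with all cultures to -1.003 without *smt0* A and to 0.02 with *smt0* A as the single control, and the phosphate regulon stays between -0.30 and -0.22.

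On the spike-in scale the 3 *asp1∆* cultures had more RNA per spike-in than the 3 *smt0* cultures. Gene counts per ERCC count were 825, 899 and 928 in *smt0* and 1110, 1119 and 1022 in *asp1∆*. The median over genes of log2 CPM on this scale was 5.58 ± 0.102 (SD, n = 3) in *smt0* and 5.79 ± 0.0358 in *asp1∆*, a difference of 0.21 or 1.15-fold, with a two-sided exact permutation *P* of 0.1, the smallest that 3 against 3 cultures allow. The median fitted difference over all tested genes was 0.27 on this scale and 0.01 on the gene-count scale. Of the tested genes 25 (0.378%) were higher and 18 (0.272%) lower, or 0.651% in either direction, and all 25 of these rises and 17 of the falls had also passed on the gene-count scale. *asp1* fell by 3.58 (adjusted *P* = 0.00063), and *pho84* and *pho1* fell as given above. Among the rises SPBPB10D8.02c had 4.16 (adjusted *P* = 5.42e-05), *tlh2* 3.97 (adjusted *P* = 0.00257), *str3* 2.98 (adjusted *P* = 0.00832) and SPAC11D3.15 2.52 (adjusted *P* = 0.0435). Of the core stress genes *ctt1* (-2.95, adjusted *P* = 0.00832) and *pyp2* (-2.58, adjusted *P* = 0.0322) passed.

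Against the mean of the 4 other deletions at T0, 945 genes (14.3%) passed the test, 583 (8.82%) higher and 362 (5.48%) lower. Besides the phosphate and oxoprolinase genes above, glucan synthase and glucanase genes stood out in number, with 13 of 21 higher and none lower, and a median of 0.51 against 0.00 over all tested genes. *eng1*, a glucanase gene of cell separation, was higher by 1.09 (adjusted *P* = 0.000492) and *gas5* by 0.68 (adjusted *P* = 0.000979), while their differences from *smt0* were 0.62 and 0.44 (adjusted *P* = 0.349 and 0.268). Of the microtubule and polarity genes 9 of 21 were higher, among them *alp14*, for a microtubule polymerase, by 0.97 (adjusted *P* = 4.65e-06). *mfm1*, an M-factor pheromone gene, was lower by -3.13 (adjusted *P* = 5.1e-05) and *mam2*, a pheromone receptor gene, by -2.04 (adjusted *P* = 0.00168). Of the antisense RNAs 58 of 611 were lower and 13 higher. Whether these differences belong to *asp1∆* or to the other deletions cannot be told apart from this comparison. Against *smt0* no gene of the glucan list passed, and *mfm1* and *mam2* differed by -1.31 and -0.26 (adjusted *P* = 0.323 and 0.91).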

How the data were processed

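RNA was sequenced in paired-end mode after rRNA depletion, with libraries made by the Illumina Stranded mRNA Prep Ligation kit. Per the study's methods the authors converted reads with bcl2fastq 2.20.0.422, aligned them with STAR 2.7.9a and counted them per gene with featureCounts 1.5.1 on the ASM294v2 annotation. The strand setting of the counting is not given in the sources used here. The deposited table holds raw counts of 7014 genes and, in the same libraries, 92 ERCC spike-in RNAs (Mix 1, whose volume was scaled to the vegetative cell number).

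Genes with a CPM above 1 in at least 3 libraries were kept (6608 genes, 406 removed). edgeR 4.0.16 in R 4.3.3 fitted the 27 groups of all 81 libraries with its quasi-likelihood test, and *P* values were adjusted by Benjamini-Hochberg over the tested genes with a threshold of 0.05. The gene-count scale used TMM factors. The spike-in scale used ERCC totals with TMM factors of the ERCC counts, and the *ies2∆* libraries, a second batch that enters no comparison shown, were shifted jointly by 3.70 log2 units. The ERCC totals of the 6 libraries carry a counting error of 0.996 to 1.25%. The *asp1∆* T0 cultures were set against the *smt0* T0 cultures and, separately, against the mean of the 4 other deletions. The fold changes of genes with few counts depend on edgeR's prior count, so ratios of summed counts with exact Clopper-Pearson intervals are given for them. Intervals and floors of 3 counts cover counting error only.

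The naming rule took *asp1* and the 12 largest rises and 12 largest falls that passed. These had non-overlapping cultures and 10 or more counts on average in the higher group. The rule also took all members of the phosphate and inositol phosphate lists, up to 4 members of every other list and called neighbours of *asp1*. Not all of these are described above, among them SPNCRNA.105 (log2 difference 3.18), SPCPB16A4.07 (-3.22) and *mug143* (-2.63). Further genes were named after their values were seen. The members and lists were chosen with earlier results of these data known. Same-letter cultures of the 2 strains did not deviate together (*r* = -0.0329, 0.0191 and -0.0402 across genes, for A, B and C), so letters were not used as pairs. Sequences are from RefSeq ASM294v3, in which 97.6% of the table's genes were matched and 99.5% of these shared a start or end. In simulated counts of 6608 genes for this comparison, the changed genes had an expected count of at least 10. The fit called 78 of 100 genes changed by 1 log2 unit and 98 of 100 changed by 2, with 4 false calls among the unchanged genes. The simulated cultures varied independently from gene to gene and none stood apart as *smt0* A did. The simulation therefore cannot measure false calls that such a culture brings. Alternatives were other sets of libraries, size factors and filters, DESeq2 1.42.0, a replicate block and leaving out each *asp1∆* or *smt0* culture. *smt0* A as the single control and leaving out *pht1∆* C were added after the data were seen.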

Additional observations from a re-analysis of the deposited data

How the results depend on the processing

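The calls against *smt0* depended most on which cultures and libraries entered the fit. On the gene-count scale, leaving out 1 culture at a time gave 42 to 107 rises and 43 to 156 falls (99 and 114 with all). In a fit of the 6 libraries alone 264 rose and 227 fell. RLE factors, other filters, all T0 libraries and DESeq2 gave 97 to 146 rises and 107 to 137 falls. The cultures share only a letter. A replicate block in the fit of all libraries gave 97 rises and 119 falls, and a replicate block in the fit of the 6 libraries gave 193 rises and 124 falls. On the spike-in scale, where 25 rose and 18 fell, the T0 libraries alone gave 229 and 50, the 6 libraries alone 1669 and 120, DESeq2 15 and 9, and leaving out 1 culture at a time 3 to 15 rises and 7 to 24 falls. Against the other deletions, where all cultures gave 945 calls, the T0 libraries alone gave 1459. Leaving out *asp1∆* A, B or C or *pht1∆* C in turn gave 323 to 936 there, and no other culture was left out. The cause of these shifts was not tested. With *smt0* A as the single control, 5 of the 42 genes chosen by the naming rule that had passed turned direction or reached 0, none past the threshold: SPCC191.10-antisense-1 (1.15), *cta3* (1.78), *pyp2* (0.003825), *gld1* (0.47) and SPNCRNA.1541 (0). The difference in RNA per spike-in was 0.167 to 0.265 log2 units with 1 culture left out. Low-count RNAs rest on few reads, and 3 cultures of 1 strain limit all comparisons.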
